A study of Mus musculus with 4 samples.

Results

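Primitive endoderm regulators and receptors were described in mouse blastocysts from RNA-seq and ribosome profiling (Ribo-seq). The 10 genes were Gata6, Gata4, Sox17, Sox7, Hnf4a, Foxa2, Pdgfra, Dab2, Lrp2 and Cubn, chosen by symbol as known genes of this lineage. Earlier results of these data were known when these genes and the lists below were chosen, so shares of called genes in them are descriptions only. All 10 were found among the 20714 gene symbols listed in both assays, and each symbol was listed a single time in each library. All embryos were wild type and under no experimental treatment, from 4-week-old C57BL/6J females mated with PWK/PhJ males, although the strain label reads C57BL/6N x PWK. Per the study's methods, the females were injected with the hormones PMSG and hCG to induce ovulation. The embryos were recovered at the 8-cell stage, grown to blastocysts in KSOM and freed of the zona pellucida with acidic Tyrode's solution. RNA-seq (Smart-seq2 on polyA RNA) measured the mRNA, and Ribo-seq measured the ribosome-protected fragments (RPF, footprints), each in 2 replicate libraries. The labels do not say whether replicates came from separate embryo pools, so p-values below measure only the spread between these libraries, which may be technical.

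The primitive endoderm is the inner cell mass lineage that comes to line the blastocyst cavity and later forms the visceral and parietal endoderm of the yolk sac. It separates from the pluripotent epiblast under FGF signalling through ERK. Gata6 acts at the top of its gene programme, and PDGF receptor signalling, Gata4, Sox17 and Sox7 follow. The mature lineage takes up maternal nutrients through the endocytic receptors megalin (Lrp2) and cubilin (Cubn) with the adaptor Dab2. Whole blastocysts were measured, and trophectoderm cells express some of these genes as well. Fewer cells of a type and less RNA per cell cannot be told apart in such samples.

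Levels are FPKM, that is fragments scaled for feature length and library size, over transcripts for mRNA and over coding sequences for RPF. They are per length, so genes of similar length can be compared. The fragment length setting behind them is not given in the sources used here. If it was the default of Cufflinks, the program that computed them, its mean of 200 bases exceeds a footprint of 28 bases. The RPF of short coding sequences, and their RPF minus mRNA difference, would then be raised relative to long ones. The size of this was not tested. The low FPKM values fell on steps that whole fragments give, and the steps implied totals of 5438533 and 5178728 fragments in RNA-seq replicates 1 and 2. For Ribo-seq they implied 531240 and 482902 footprints. Of the values examined, 64.2% and 63.3% in RNA-seq and 85.1% and 84.7% in Ribo-seq lay within 0.1 of a whole count, where chance gives 20%. Replicates had a Spearman correlation over the 20714 genes of 0.94 for mRNA and 0.898 for RPF, as a description across genes. A floor of 3 counts was applied to each library, and floors and intervals cover counting error only.

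The levels ran from among the highest of the genome to a single count. Dab2, Lrp2 and Gata6 were measured well above the floor in all 4 libraries. Sox17, Gata4 and Pdgfra had 12.3 to 32.7 FPKM of RPF while their mean mRNA was under 1 FPKM. Sox7, Hnf4a, Foxa2 and Cubn had a mean RPF under 1 FPKM and a mean mRNA under 1 FPKM. Only 5 of the 10 genes, Gata6, Pdgfra, Dab2, Lrp2 and Cubn, were listed above 0 in all 4 libraries.

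**Figure D1:**
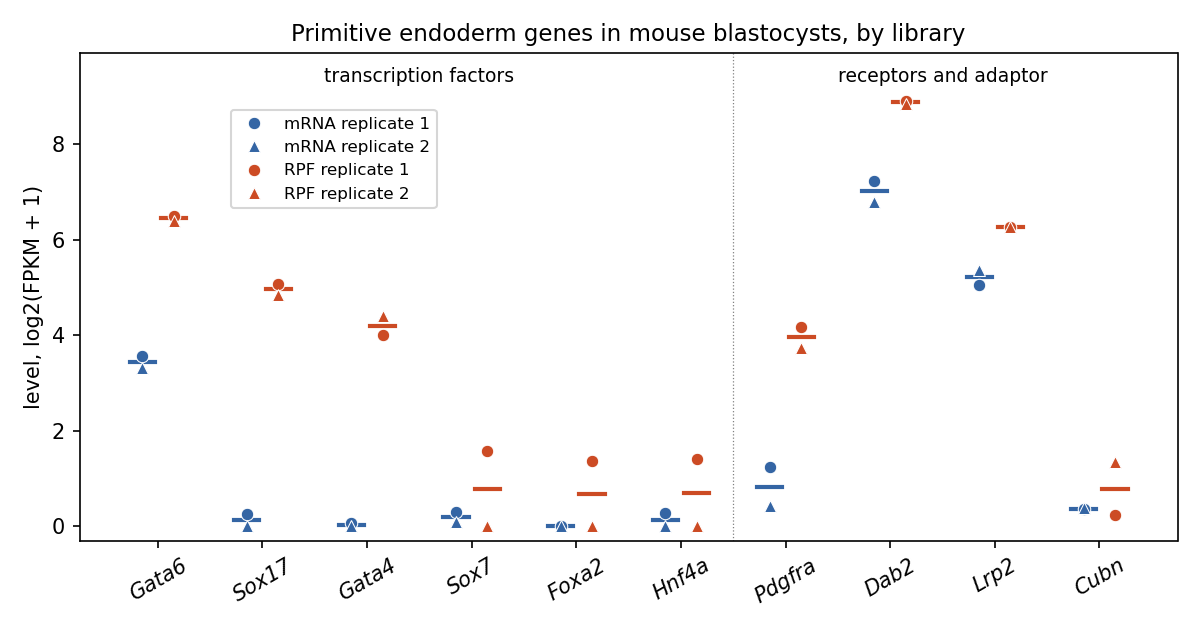
Level of each gene as log2(FPKM + 1), with 1 point per library (circles, replicate 1; triangles, replicate 2) and a bar at the mean of 2 libraries; blue is mRNA and red is RPF. Gata6, Sox17, Gata4, Pdgfra, Dab2 and Lrp2 have both red points above both blue points, and Sox7, Foxa2, Hnf4a and Cubn lie near 0.

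Among the transcription factors, the zinc-finger protein Gata6 (chr18:11052508-11085633, plus strand, NCBIM37) was the highest in both assays. Its mRNA level, 10.9 and 9.002 FPKM, rested on 177 and 140 fragments, and its RPF level, 89.4 and 82.8 FPKM, on 74.6 and 62.8 footprints. Its mean mRNA of 9.93 ± 1.32 FPKM (SD, n = 2) was above that of 81.9% of all genes, and its mean RPF of 86.1 ± 4.70 FPKM (SD, n = 2) above that of 90.2%. The assays did not overlap.

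The GATA factor that follows it, Gata4 (chr14:63817759-63890529, minus strand), had 0.0574 FPKM of mRNA in replicate 1, which was 1 fragment, and a listed value of 0 in replicate 2. Its RPF was 15.0 and 20.2 FPKM, or 8.98 and 10.99 footprints. Both mRNA values were under the floor of 3 fragments, at 0.172 and 0.181 FPKM, whereas both RPF values were above their floor. The RPF of Gata6 was 5.97 and 4.11 times that of Gata4 in replicates 1 and 2.

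Sox17 (chr1:4481009-4486494, minus strand), an HMG-box factor of the SoxF group that sustains the endoderm programme, showed the same arrangement. Its mRNA was 0.204 FPKM in replicate 1, or 3.25 fragments, and 0 in replicate 2. In RPF it reached 32.7 and 27.6 FPKM, or 18.4 and 14.1 footprints. Sox17 had more RPF than Gata4 in both replicates, by 2.18 and 1.37 times, and the values of the pair did not overlap. Those of Gata4 rested on 8.98 and 10.99 footprints, and whether the pair differed beyond counting error was not tested.

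Its close relative Sox7 (chr14:64562511-64569569, plus strand) was near the floor instead. Sox7 mRNA was 0.240 and 0.0633 FPKM, or 4.04 and 1.01 fragments. Its RPF was 1.99 FPKM in replicate 1, a single footprint (0.996), and 0 in replicate 2. In Ribo-seq replicate 1 the level of Sox17 was 16.4 times that of Sox7.

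Since paralogues can share reads, the coding sequences of Sox17 and Sox7 were compared. Their longest common run is 22 bases, and is shown here because it is shorter than a footprint of 28 bases. Capitals mark the shared run, read 5′ to 3′ on the coding strand, at chr1:4482637-4482666 (minus strand) for Sox17 and chr14:64566675-64566704 (plus strand) for Sox7 on NCBIM37.
Sox17: gaccACCCCAACTACAAGTACCGGCCgcgg
Sox7: gattACCCCAACTACAAGTACCGGCCccgc
The bases on both sides of the run differ between the genes, and no 28-base window of one coding sequence occurs in the other (0 windows). Of the 1233 windows of Sox17, 2 also occur in another gene, Sox18, whose RPF was 0 and 2.21 FPKM in replicates 1 and 2. Sox7 shares 11 of 1116 windows with Sox13 and Sox8. For Gata4 and Gata6 the longest common coding run is 18 bases, and neither shares a 28-base window with any other protein-coding gene. Windows were compared for exact matches with protein-coding transcripts only. The study's footprint mapping allowed mismatches and matches shorter than 28 bases, so these windows cannot show that reads were not shared. Whether reads were shared was not tested.

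The later endoderm factors had little signal. Hnf4a (chr2:163332544-163398646, plus strand), a nuclear receptor of the visceral endoderm, had 0.221 FPKM of mRNA (5.01 fragments) in replicate 1 and 0 in replicate 2. Its RPF was 1.67 FPKM in replicate 1, which was 1.09 footprints, and 0 in replicate 2. The winged-helix factor Foxa2 (chr2:147868613-147872705, minus strand) was listed at 0 in both RNA-seq libraries and in Ribo-seq replicate 2. Its only signal was 1.59 FPKM in Ribo-seq replicate 1, a single footprint (1.01). A floor of 3 footprints would be 4.61 and 5.07 FPKM for Hnf4a and 4.72 and 5.19 FPKM for Foxa2, so neither was detectable in RPF at this depth. Foxa2 shares 11 of its 1371 windows with Foxa1.

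Pdgfra (chr5:75548316-75594229, plus strand), the receptor tyrosine kinase that marks the early lineage, had an mRNA level of 1.36 and 0.336 FPKM, or 47.1 and 11.1 fragments. Its RPF level was 17.1 and 12.3 FPKM, or 27.8 and 18.3 footprints. The mRNA replicates differed by 0.82 on the log2(FPKM + 1) scale, against 0.25 for Gata6 and 0.43 for Dab2, and both still lay below the RPF values. The epiblast markers, which share the inner cell mass with these cells, also had lower mRNA in replicate 2 for 11 of 12 genes, with a sum of 319 and 200 FPKM (Tdgf1, 22.2 and 2.12 FPKM). None of the 12 was at 0 in any library. Of the 10 primitive endoderm genes, 7 were lower in RNA-seq replicate 2, and their sum was 194 and 159 FPKM. Trophectoderm markers summed to 3821 and 3537 FPKM, with 7 of 10 lower in replicate 2. From replicate 1 to 2, the median change in log2(FPKM + 1) of mRNA was -0.50 for epiblast, -0.23 for primitive endoderm and -0.086 for trophectoderm genes. Over the 8327 genes tested below it was 0.036. The part of this difference between libraries in the results was not tested.

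The endocytic genes held most of the signal. Dab2 (chr15:6249788-6390712, plus strand), an adaptor that joins receptors to clathrin, had 148 and 110 FPKM of mRNA and 476 and 455 FPKM of RPF. These values rested on 3592 and 2532 fragments and on 532 and 462 footprints. Dab2 was above 97.1% of all genes in mRNA and above 97.2% in RPF. It supplied 73.0% of the summed mean mRNA of the 10 genes (176 FPKM) and 67.2% of their summed mean RPF (693 FPKM).

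Lrp2 (chr2:69262397-69424122, minus strand), the large endocytic receptor megalin, had 32.3 and 40.0 FPKM of mRNA and 75.8 and 75.3 FPKM of RPF. Its coding sequence is 13983 bases long, so that these levels stood for 2681 and 3164 fragments and for 555 and 502 footprints. The RPF values of Lrp2 were the closest of the 10 genes between replicates, at 75.6 ± 0.288 FPKM (SD, n = 2). With 2 values, which also carry counting error, such closeness is not a measure of precision.

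Cubn (chr2:13197965-13413551, minus strand), the partner receptor of Lrp2 on the same chromosome, was low. Its mRNA was 0.283 and 0.298 FPKM, or 17.2 and 17.3 fragments. The RPF was 0.175 and 1.54 FPKM, or 0.992 and 7.95 footprints, and only the second value was above the floor. Lrp2 exceeded Cubn 114-fold and 134-fold in mRNA, and 433-fold and 48.8-fold in RPF, where the first ratio rests on a single Cubn footprint. The longest coding run that Lrp2 and Cubn have in common is 14 bases. Neither shares an exact 28-base window with another protein-coding gene, nor does Dab2, Pdgfra or Hnf4a.

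Antisense genes overlap Gata6 (1010001N08Rik), Dab2 (Gm16311), Hnf4a (0610008F07Rik) and Cubn (Gm13270) in the annotation. Whether strand was used in counting is not given in the sources used here, and without it reads of the overlapping genes cannot be told apart.

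**Figure D2:**
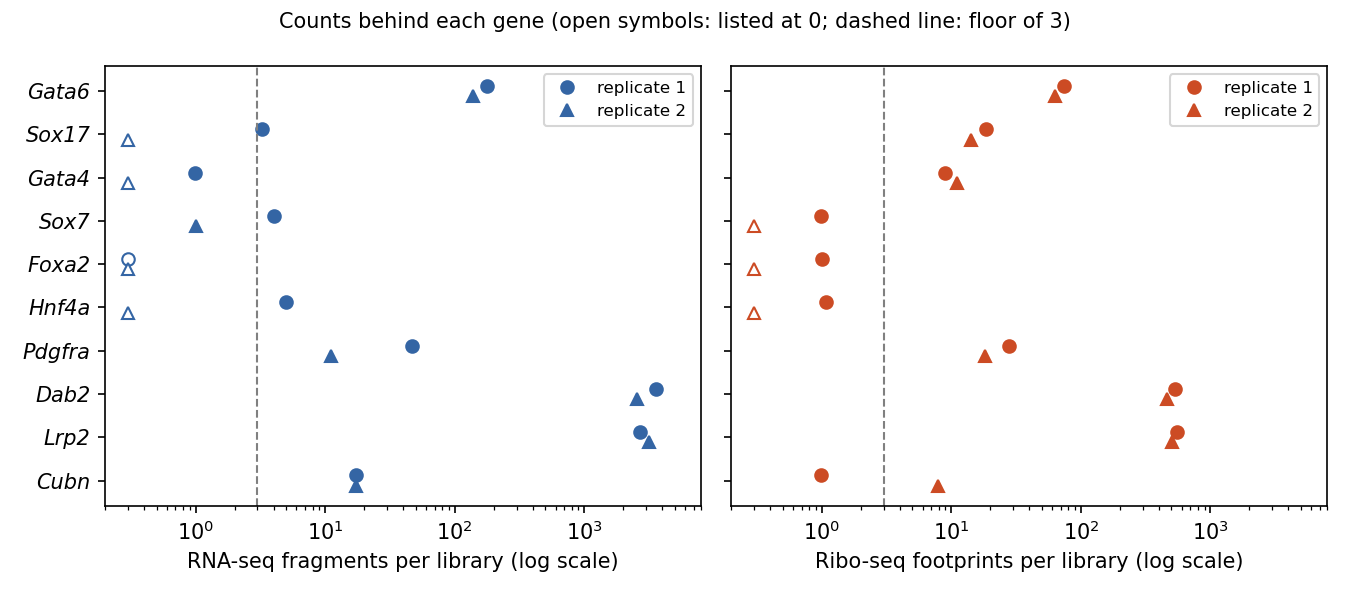
RNA-seq fragments (left) and Ribo-seq footprints (right) behind each gene in each library, on log axes; circles are replicate 1, triangles replicate 2, open symbols at the left edge stand for values listed at 0, and the dashed line is the floor of 3 counts. Sox17 and Gata4 lie right of the line in both Ribo-seq libraries and beside or left of it in RNA-seq, while Dab2 and Lrp2 lie far right of it in all 4 libraries.

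By mean mRNA the order was Dab2, Lrp2, Gata6, Pdgfra and Cubn, each with replicate values apart from those of the next, and then Sox7, Hnf4a, Sox17, Gata4 and Foxa2, whose values overlapped with their neighbours. By mean RPF it was Dab2, Gata6, Lrp2 and Sox17, each apart from the next, and then Gata4 and Pdgfra, which overlapped. Last came Sox7, Cubn, Hnf4a and Foxa2, which overlapped with one another. Gata6 and Lrp2 changed places: Lrp2 was higher in both mRNA libraries, and Gata6 was higher in both RPF libraries. The RPF part of this rests on 74.6 and 62.8 footprints of Gata6. It also depends on the length by which FPKM are divided, as Gata6 has 1770 coding bases and Lrp2 13983. Whether the RPF order of these 2 genes holds with full coding lengths, or beyond counting error, was not tested. Sox17 lay among the overlapping genes in mRNA and apart from its neighbours in RPF. The word apart describes the values of 2 libraries and leaves out counting error. Positions within the overlapping genes carry no information, and leaving out Ribo-seq replicate 1 or 2 changed the RPF position of 4 or 5 genes, while leaving out RNA-seq replicate 1 changed the mRNA position of 3.

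The next question was whether RPF and mRNA differed in these genes beyond what the genome as a whole showed. RPF values were above mRNA values for most genes, by a median of 1.26 on the log2(FPKM + 1) scale. Differences are therefore given relative to that median, from limma over the 8327 genes with a mean of at least 1 FPKM in both assays. Such a fold change understates that of low genes. A gene was called at a Benjamini-Hochberg adjusted p under 0.05 over all tested genes and a log2 difference of at least 1.

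Only Gata6, Dab2 and Lrp2 passed this filter, since the other 7 genes had a mean mRNA under 1 FPKM. Gata6 RPF was higher than its mRNA by 1.74 (SE 0.25; limma, adjusted p = 0.0325), a difference above that of 91.8% of tested genes. Dab2 differed by 0.60 (SE 0.28; limma, adjusted p = 0.210) and Lrp2 by -0.21 (SE 0.26; limma, adjusted p = 0.592), and neither was called, whereas without centring on the median both were higher (1.86 and 1.05; limma, adjusted p = 0.0109 and 0.0328). So 1 of 3 genes was called higher and 0 lower, against 9.13% higher and 3.24% lower among all genes tested. The call of Gata6 was lost with a pseudocount of 0.1 (1.71; limma, adjusted p = 0.0524) and when either RNA-seq library was left out (1.88 and 1.61; limma, adjusted p = 0.293 and 0.310), where 0 genes of the genome were called by limma and 1317 and 1260 had an unadjusted p under 0.05. Whether Gata6 differed from Dab2 or Lrp2 in this respect was not tested.

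**Figure D3:**
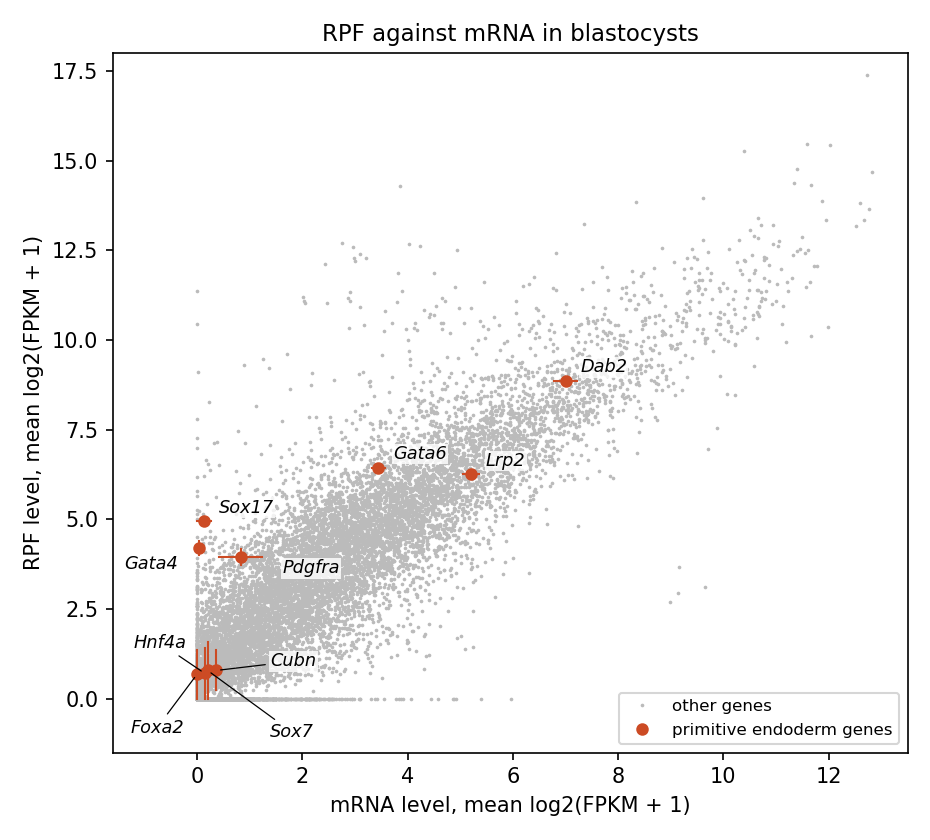
Mean RPF level against mean mRNA level, both as log2(FPKM + 1), for all genes (grey) and the 10 primitive endoderm genes (red); red lines run from the lower to the higher replicate. Dab2 and Lrp2 lie within the grey cloud, Gata6 lies toward its upper edge, and Sox17, Gata4 and Pdgfra lie at the left, with RPF levels near 4 or 5 and mRNA levels under 1.

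Sox17, Gata4 and Pdgfra entered a comparison only without the filter, over the 13402 genes above 0 in any library, where the median shift was 0.83. For Sox17 the difference was 3.99 and for Gata4 3.33, but their mRNA rested on 3 and 1 fragments with 0 in replicate 2, where the log2(FPKM + 1) scale leaves almost no spread. Their standard errors and p-values are therefore not given as support, and with a pseudocount of 0.1 the same differences became 6.35 and 6.04. Pdgfra RPF was higher than its mRNA by 2.29 (SE 0.39; limma, adjusted p = 0.0344), a call that was lost with a pseudocount of 0.1 (3.11; limma, adjusted p = 0.0964). In this fit Gata6 (2.16) and Dab2 (1.03) also passed the threshold, with limma adjusted p of 0.0205 and 0.0492, and Dab2 did not with a pseudocount of 0.1 (0.79; limma, adjusted p = 0.168). The levels of both genes were the same as in the filtered fit, where Dab2 was not called (0.60). Here the median shift was 0.83 against 1.26, and the SE of Dab2 was 0.22 against 0.28. The call of Dab2 therefore depends on which genes entered the fit. Counted with Sox17 and Gata4, 5 of the 10 genes passed it as higher and 0 as lower, where 14.9% of all genes were called higher and 8.48% lower, and nothing is read from that count. Sox7, Hnf4a, Foxa2, Lrp2 and Cubn were not called, with differences from -0.41 to 0.22. With any 1 of the 4 libraries left out, an assay with 1 library took its spread from the other assay, and 0 genes of the genome were called by limma, with 4010 to 6929 at an unadjusted p under 0.05. The differences then lay between 3.78 and 4.04 for Sox17, 2.98 and 3.52 for Gata4, and 1.81 and 2.62 for Pdgfra.

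Counting error alone was also set out for each gene, with counts of both libraries of an assay added. For Sox17, 32 footprints stood against 3 fragments, which gave an RPF-to-mRNA ratio of 309 in FPKM (exact 95% counting interval 96.6 to 1576). Gata4 had 20 footprints against 1 fragment, a ratio of 594 (94.9 to 24604). Pdgfra had 46 against 58, and its ratio was 17.2 (11.4 to 25.8). Its RNA-seq libraries differed more than that, and the ratio was 44.3 without RNA-seq replicate 1 and 10.9 without replicate 2, both outside the interval. Gata6 had a ratio of 8.69 (7.07 to 10.6), which was 9.60 and 7.97 with the same libraries left out. Dab2, at 3.61 (3.37 to 3.86), and Lrp2, at 2.10 (1.96 to 2.24), also moved outside their intervals, to 4.26 and 3.15 and to 1.89 and 2.34. Cubn had 9 footprints against 34 fragments and a ratio of 2.90 (1.22 to 6.18). The intervals do not cover the spread between libraries, and the 2 assays differ in library chemistry. Unlike the differences from limma, these ratios are not centred on the median of 1.26 by which RPF exceeded mRNA across tested genes. A ratio above 1 is therefore not by itself an excess of RPF relative to other genes.

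A low mRNA value under a clear RPF value was seen in 3 of the 6 genes with a mean RPF of at least 10 FPKM, namely Sox17, Gata4 and Pdgfra. Over the genome 205 of 6240 such genes (3.29%) had a mean mRNA under 1 FPKM. Both RPF values exceeded both mRNA values for 6 of the 10 genes, beside 52.7% of all genes above 0 in any library.

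The rest of the primitive endoderm programme was described from a list of 23 genes, 22 of them in both files, of which 10 passed the filter. RPF was called higher for 5 of these 10 and lower for 0, beside 9.13% and 3.24% of all genes tested, and the median difference was 1.40. Serpinh1, a chaperone of collagen folding, had 2.43 and 0.571 FPKM of mRNA against 94.3 and 133 FPKM of RPF, a difference of 4.35 (SE 0.49; limma, adjusted p = 0.0240). The others were the matrix genes Sparc (2.86), Lamc1 (2.45), Nid2 (1.84) and Lamb1 (1.34), with limma adjusted p from 0.0169 to 0.0454, while the laminin Lama1 (1.45; limma, adjusted p = 0.0663) was not called. The collagen chains Col4a1 and Col4a2 had a mean mRNA under 1 FPKM with a mean RPF of at least 10 FPKM, as had Pdgfra, with 33.4 and 35.1 FPKM of RPF for Col4a1 and an mRNA of 1.38 and 0.182 FPKM. The lipid carrier Apoe had the highest mRNA of the list at 173 and 133 FPKM, and its difference was 0.27 (SE 0.27; limma, adjusted p = 0.510). Apoa1, which also carries lipid, had 44.4 and 41.6 FPKM of mRNA and 131 and 115 FPKM of RPF, whereas Ttr and Fst were listed at 0 in all 4 libraries.

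**Figure D4:**
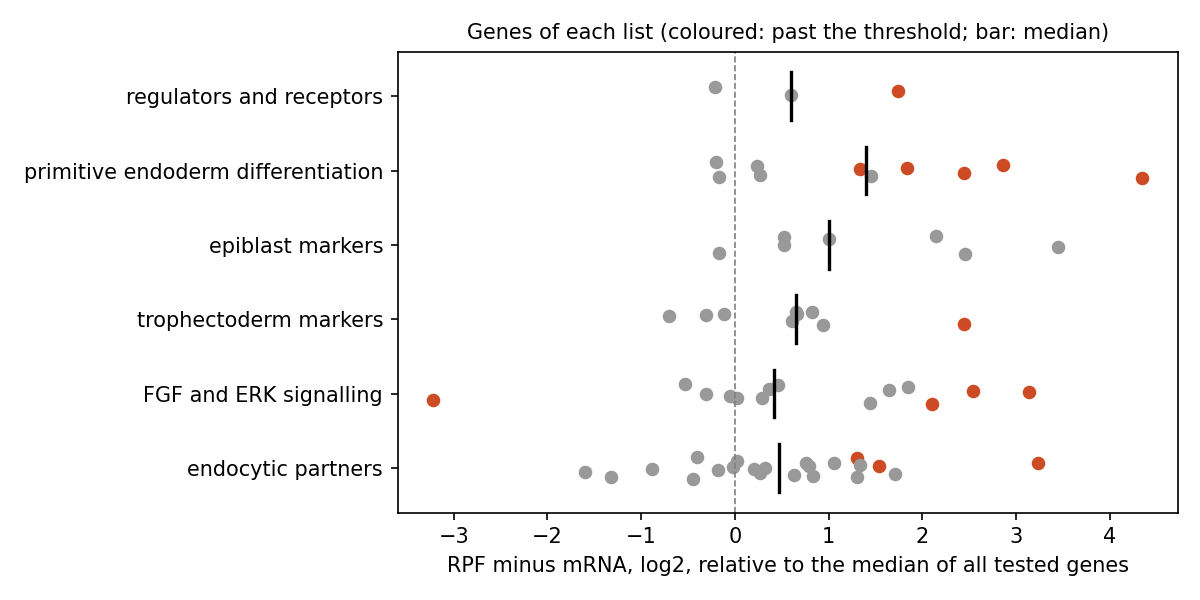
RPF minus mRNA on the log2(FPKM + 1) scale, relative to the median of all tested genes, for the genes of 6 lists that passed the filter; red points passed the threshold, grey points did not, and black bars mark the medians. Gata6 is the single red point among the regulators and receptors, and 5 genes of the differentiation list are red at 1.34 to 4.35.

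Pdgfra was set beside its ligands. Pdgfa was the only ligand with a clear level, at 12.5 and 19.3 FPKM of mRNA and 30.3 and 19.1 FPKM of RPF (difference -0.66, SE 0.38; limma, adjusted p = 0.289). Pdgfb, Pdgfc and Pdgfd were listed at 0 for RPF in both libraries, and the other receptor, Pdgfrb, had 1.21 FPKM of RPF in replicate 1 only. Thus the receptor Pdgfra was lower than its ligand Pdgfa in both mRNA libraries and in both RPF libraries.

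Dab2, Lrp2 and Cubn act with 24 further endocytic genes on the list fixed for them. Of the 22 that passed the filter, 3 were called higher in RPF, namely Rab5c (3.24), Rab5a (1.54) and Rab7 (1.30), and 0 lower, a share near the 9.13% of all genes tested. The median difference of this list was 0.47. Its highest mRNA was that of the AP2 subunit Ap2s1 (235 and 303 FPKM) and its highest RPF that of the clathrin light chain Clta (705 and 791 FPKM), and neither was called. Amn, the membrane anchor that carries Cubn to the cell surface, was as low as Cubn, with 0.364 FPKM of mRNA and 1.59 FPKM of RPF in replicate 1 and 0 in replicate 2 of each assay. Lrpap1, the chaperone of Lrp2 and its relatives, was high with 116 and 95.8 FPKM of mRNA and 580 and 677 FPKM of RPF. Among 10 other members of the LDL receptor family, Lrp10 had the highest mRNA at 4.51 and 9.03 FPKM, below both values of Lrp2, and Lrp8 and Lrp1b were at 0 in all 4 libraries. None of the 2 that passed the filter was called.

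The FGF and ERK genes that set the balance between epiblast and primitive endoderm had 14 of 22 members past the filter, with a median of 0.41. Among those called higher in RPF were Grb2 (3.14), an adaptor of the receptor, and Etv5 (2.54), a transcription factor that responds to the pathway. Spry2, a feedback inhibitor, was called lower at -3.22 (SE 0.41; limma, adjusted p = 0.0275), with 39.3 and 26.1 FPKM of mRNA, the highest of the list, and 10.0 and 5.53 FPKM of RPF.

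Among 13 paralogues, Gata3, a trophectoderm factor, had the highest level with 127 and 112 FPKM of mRNA and 286 and 244 FPKM of RPF, above Gata6 in all 4 libraries. Gata2 had 16.4 and 24.6 FPKM of mRNA and 57.3 and 73.1 FPKM of RPF. Foxa1, Foxa3 and Sox18 were each listed at 0 in at least 2 libraries, and Gata5, Hnf4g, Dab1 and Csf1r in all 4. Of the 3 paralogues that passed the filter, 0 were called.

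The other lineages of the blastocyst were present by their markers. Of 12 epiblast markers, 7 passed the filter and 0 were called, and the median difference was 1.00. Pou5f1 had the highest RPF (475 and 496 FPKM) and Tfcp2l1 the highest mRNA (80.1 and 63.6 FPKM). Sox2, Esrrb and Fgf4 had at least 10 FPKM of mean RPF with under 1 FPKM of mean mRNA. Esrrb met the mRNA limit only through replicate 2 (1.70 and 0.292 FPKM). The RPF replicates lay on both sides of 10 FPKM for Esrrb (5.03 and 27.7 FPKM) and Fgf4 (18.4 and 5.08 FPKM). The trophectoderm markers had 9 of 10 past the filter with 1 called higher, a share near the 9.13% of all genes tested, which was Cdx2 at 2.45 (SE 0.25; limma, adjusted p = 0.0225), and the keratin Krt18 reached 1757 and 1754 FPKM of mRNA. Oocyte, cumulus and blood markers were at 0 in all 4 libraries for 6 of 8, 7 of 8 and 3 of 5 genes, and the highest of the rest were Zp3 (RPF 1.74 and 1.92 FPKM), Ptx3 (RPF 1.09 FPKM in replicate 2 only) and Hba-a1 (mRNA 1.62 and 0.729 FPKM).

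For the 3 genes with the highest mRNA, the genes with the most similar levels were found by Euclidean distance of log2(FPKM + 1) over the 4 libraries. Nearest to Dab2 were Hnrnpf (0.275) and Hspa9 (0.311), nearest to Lrp2 were Ccdc42 (0.168) and Shmt1 (0.196), and nearest to Gata6 were Pdxk (0.285) and Sptlc2 (0.307). Pdxk, for example, had 10.5 and 10.7 FPKM of mRNA and 91.5 and 74.2 FPKM of RPF.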

How the data were processed

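FPKM values of 2 RNA-seq and 2 Ribo-seq libraries of blastocysts, as deposited by the authors, were used. Per the study's methods, reads were trimmed, rRNA reads were removed from Ribo-seq, and the rest were mapped to mm9 with up to 20 places allowed per read; the FPKM were computed on transcripts (RNA-seq) or coding sequences (Ribo-seq). The submitters' processing notes name Trim Galore 0.4.2, cutadapt 1.14, STAR 2.5.3a, Bowtie2 2.2.2 and Cufflinks 2.2.1.

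A repeated symbol took its highest value. limma 3.58.1 (R 4.3.3) was fitted on log2(FPKM + 1), RPF minus mRNA, with a constant prior, for genes with a mean of at least 1 FPKM in both assays, and differences were centred on the median of tested genes. With 2 libraries against 2, an exact permutation test of a single gene cannot go below p = 0.333 (two-sided). Python 3.11.15, numpy 2.4.6, scipy 1.17.1 and pandas 2.3.3 were used otherwise. Counts were recovered from the steps of the FPKM with Cufflinks' default effective length (mean 200, SD 80 bases), taking the smallest total that gave near-whole low values, so depth is an estimate. Coordinates and coding sequences came from GENCODE vM1 on NCBIM37, the assembly of mm9. The fit and the depth estimate were tested on simulated data. The fit recovered 21% of genes with a log2 difference of 2 and 68% of those with 4. Of its calls, 5.3% fell on unchanged genes. A gene that was not called may therefore still differ. Estimated totals were 0.998 to 1.005 times the true ones. The simulated counts were built with the same effective length as the estimate, so they cannot test that length.

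The 10 genes and all lists were chosen with earlier results of these data known. Named in the text, by rule, were the 10 genes; in each other list the gene with the highest mRNA, the gene with the highest RPF and the called gene with the largest difference; and the 2 nearest genes of the 3 with the highest mRNA. All other genes named were picked with their values in view. Some genes of the FGF and ERK list are not reported here. Alternatives were the pseudocount, the filter, the scaling, limma-trend, repeated symbols, a replicate block and each library left out; those combined with no filter, and the ratios of counts without an RNA-seq library, were added after seeing the data.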

Additional observations from a re-analysis of the deposited data

How the results depend on the processing

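The call of Gata6 and all counts of calls depended on the processing, while the sign of the Gata6 difference was positive under every alternative run. With the mean FPKM limit of 1 in both assays, 760 genes were called higher, 270 lower and 1030 in all, with 1 of the 10 primitive endoderm genes among them. A pseudocount of 0.1 gave 413, 130 and 543 with 0 of the 10 (Gata6 1.71; limma, adjusted p = 0.0524). No filter gave 1997, 1136 and 3133 with 5 of the 10 (Dab2 1.03, called; Lrp2 0.22, reversed and not called). No centring gave 4113, 65 and 4178 with 3 of the 10 (Dab2 1.86 and Lrp2 1.05, the latter reversed and called). A limit of 5 FPKM gave 515 genes lower, quantile normalization 485 and limma-trend 477 (1611 in all). With the replicate block, 27 genes were higher and 1 lower (28 in all), with 0 of the 10 (Gata6 1.74; limma, adjusted p = 0.0965). The replicate numbers are shared only as labels, and the deviations of same-numbered libraries had a correlation of 0.0099 over 8327 genes. With each library left out, the counts ranged from 0 to 1359 higher, 0 to 1287 lower and 0 to 2646 in all, and 0 to 1 of the 10, and Gata6 from 1.59 to 1.88. The counts of 0 came with an RNA-seq library left out. The number of genes that changed position then ranged from 0 to 3 in mRNA and from 4 to 5 in RPF. Without a filter, the replicate block also ended all 5 calls (limma, adjusted p from 0.104 to 0.119). Differences without a filter reversed for Hnf4a (0.15), Foxa2 (0.95) and Lrp2 (-0.0151) with a pseudocount of 0.1. They did so for Lrp2 (-0.0163) without RNA-seq replicate 1, for Cubn (0.14) without Ribo-seq replicate 1, and for Sox7 (0.40), Hnf4a (0.30) and Foxa2 (0.39) without Ribo-seq replicate 2, none of them called. Apart from construction (fewer libraries, other genes tested), the cause of these moves was not tested. Sox7, Hnf4a, Foxa2 and Cubn in RPF were at or under the floor of 3 counts in at least 1 library. So were Sox17 and Gata4 in mRNA. Their levels in that assay are therefore imprecise, and the cause of the low counts was not tested.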
